A study of Rattus norvegicus with 29 samples.

Results

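The genes that give a T cell its identity were followed in peripheral blood mononuclear cells (lymphocytes with monocytes) from 29 male Wistar rats, with 1 rat per array. The members were 10 named genes, Cd3d, Cd3e, Cd3g, Cd247, Cd4, Cd8a, Cd8b, Lck, Bcl11b and Tcf7, out of 11306 genes with a symbol that were measured. 8 of them, on 9 probes, were found by the gene name in the scanner files. Cd247 was found by its RefSeq accession, since the files name it Cd3z, and Lck by the description of its probe, which is named only by an Ensembl transcript, so 11 probes stood for 10 genes. All 11 were well above background on all 29 arrays, so none was lost to the filter on dim probes.

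Rats on a cafeteria diet were sampled fed, fasted or refed (5 in each state), and so were rats on a control diet (4 fed, 5 fasted and 5 refed). Cafeteria rats were given a fat-rich, energy-dense diet beside chow and control rats chow alone, from 2 months of age and for 4 months, and all were sampled at 6 months. Fed rats ate freely, fasted rats had no food for 14 h, and refed rats had such a fast and then free food for 6 h. The contrast is one of diet within 1 outbred strain. Saphenous blood was separated on Ficoll, which leaves lymphocytes, monocytes and any platelets that stay with them. Each array carried the RNA of 1 rat in Cy5 and a Cy3 pool of all groups, so a value is the log2 ratio of a rat over that pool, and 0 is the level of the pool.

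T cells recognise antigen through a T cell receptor that cannot signal by itself. The CD3 chains (Cd3d, Cd3e, Cd3g) and the zeta chain (Cd247) carry the signal inwards, the co-receptors CD4 and CD8 bind the molecules that present antigen, and the kinase LCK, held by the co-receptors, phosphorylates the CD3 and zeta chains. The transcription factors Bcl11b and TCF-1, the product of Tcf7, are known from mice to commit thymocytes to the T lineage and to hold it. In the rat, monocytes also carry CD4 and natural killer (NK) cells carry the CD8 alpha chain, and NK cells use LCK and the zeta chain, so these members are not restricted to T cells. In RNA of mixed cells, fewer T cells and less RNA per T cell cannot be told apart.

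The median Cy5 signal of an array lay between 103.2 and 154.2 units. The arrays lay on 8 slides, and their images were extracted in 2 runs (14 arrays in run 1, 15 in run 2), in which the median Cy5 signals averaged 138.3 ± 7.10 and 114.2 ± 7.69 units (SD). Run 1 held 6 cafeteria and 8 control arrays and run 2 held 9 cafeteria and 6 control arrays. Each slide lay wholly within 1 run, so a difference between runs cannot be told apart from one between sets of slides. Of 28242 probes tested, 1105 passed an adjusted p of 0.05 between the diets over the 3 feeding states, 1103 between fasted and fed rats of both diets and 3717 between refed and fasted rats of both diets. The members varied between rats of a group with a median SD of 0.23 (range 0.15 to 0.30), against a median of 0.13 over all probes.

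**Figure D1:**
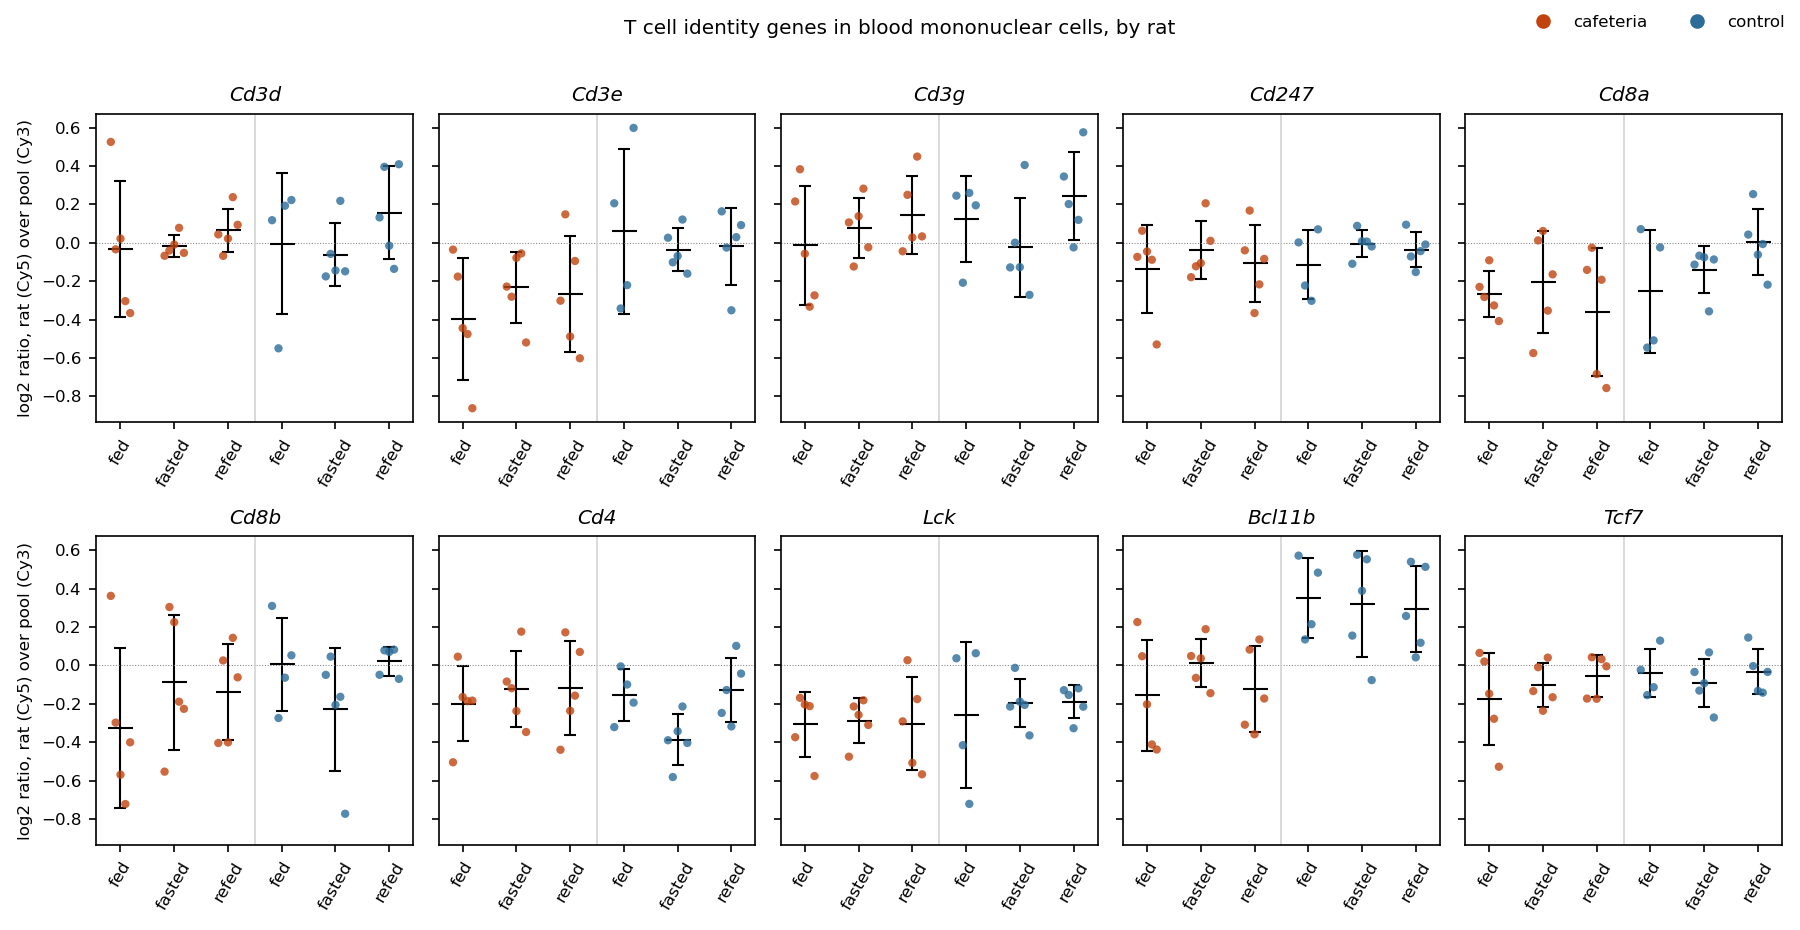
Log2 ratio of each rat (Cy5) over the pool (Cy3) for the 10 T cell identity genes, with 1 point per rat, the group mean as a bar and 1 SD as an error line, and fed, fasted and refed rats of the cafeteria diet left of those of the control diet. The groups overlap in every panel, and the control points of Bcl11b, all but 1 of which lie above 0, mostly sit higher than its cafeteria points.

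Comparing cafeteria with control rats asks whether long-term overfeeding altered the T cell genes of the blood. Bcl11b was lower in cafeteria rats. Its log2 ratio had a lowest value of -0.44, a median of -0.065 and a highest value of 0.23 in the 15 cafeteria rats, against -0.077, 0.32 and 0.58 in the 14 control rats. In fed rats it was 0.23, 0.047, -0.20, -0.41 and -0.44 in cafeteria rats 1, 4, 7, 10 and 13, against 0.57, 0.14, 0.21 and 0.48 in control rats 1, 4, 7 and 13. The 3 lowest values of the fed rats were all from cafeteria rats, and cafeteria rat 1 reached into the control range.

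In fasted rats Bcl11b was 0.049, -0.065, 0.036, 0.19 and -0.14 in cafeteria rats 2, 5, 8, 11 and 14, against 0.15, 0.58, 0.39, 0.55 and -0.077 in control rats of the same numbers, which name other animals. In refed rats it was -0.31, 0.082, -0.36, 0.13 and -0.17 in cafeteria rats 3, 6, 9, 12 and 15, against 0.26, 0.54, 0.042, 0.12 and 0.51 in control rats of those numbers. In each state the diets overlapped, in fasted rats through cafeteria rat 11 and control rat 14 and in refed rats through control rats 9 and 12. Averaged over the 3 states, Bcl11b fell by 0.41 ± 0.083 on the log2 scale (SE, 95% interval -0.58 to -0.24, limma adjusted p = 0.00279), a 1.33-fold fall. The order of the group means was cafeteria fed (-0.16), cafeteria refed (-0.12), cafeteria fasted (0.013), control refed (0.29), control fasted (0.32) and control fed (0.35), with SDs of 0.13 to 0.29 within a group. Within each diet the ranges of the 3 states overlapped.

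Bcl11b was the only member called in this comparison, 1 of 10, where 3.91% of all probes were called and 3.09% were called lower. Within single states, 0 of 10 members were called by limma at any of the 3, where 0.00354% of probes passed in fed, 1.13% in fasted and 0.368% in refed rats. The difference of Bcl11b was -0.51 ± 0.15 in fed rats (adjusted p = 0.521), -0.31 ± 0.14 in fasted rats (adjusted p = 0.298) and -0.42 ± 0.14 in refed rats (adjusted p = 0.252). At an unadjusted p under 0.05, 2 of 10 members passed in each state, Bcl11b beside Cd3e in fed, Cd4 in fasted and Cd8a in refed rats. Of all probes, 4.87% had such a p in fed, 15.2% in fasted and 8.43% in refed rats, so the count in fasted rats was near that share. The 3 differences came from different rats and from the same probe. With each array centred on its median in place of loess, Bcl11b had a difference of -0.32 over the 3 states (adjusted p = 0.341) and was not called.

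A second, dimmer probe of Bcl11b gave a smaller difference. The brighter probe lies at chr6:132294349-132294408 and the dimmer at chr6:132370182-132370241, both on the minus strand of rn4 and 75833 bases apart, and the files assign both to 1 transcript without saying which exon or untranslated region they lie in. The dimmer probe changed by -0.10 ± 0.053 (95% interval -0.21 to 0.0034, adjusted p = 0.338), with a median of -0.13 in cafeteria rats and 0.021 in control rats. Over the 29 arrays the probes had a Pearson correlation of 0.756 and a Spearman correlation of 0.803. The median Cy5 signal was 256.1 units at the dimmer probe and 4134 units at the brighter one.

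The diet difference of Bcl11b was larger in run 1 than in run 2 of the image extraction. In run 1 the values of cafeteria rats had a lowest value of -0.44, a median of -0.26 and a highest of 0.23, against 0.15, 0.51 and 0.58 in control rats. In run 2 they were -0.36, 0.047 and 0.19 in cafeteria rats, against -0.077, 0.13 and 0.51 in control rats. In separate fits of each run, with the feeding state in the model, the dimmer probe had a difference of -0.15 ± 0.092 in run 1 and 0.012 ± 0.069 in run 2 (SE). For the brighter probe, whose values are given above, the difference was -0.66 ± 0.13 in run 1 and -0.16 ± 0.11 in run 2 (SE), below 0 in both. In 1 fit of both runs with a term for diet by run, added after seeing the data, the difference was 0.51 ± 0.17 less negative in run 2, with an unadjusted p of 0.00496 and an adjusted p of 1.00, so it did not pass. Over all probes 0% were called for this term and 3.18% had an unadjusted p under 0.05.

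This diet by run term was above 0 for all 10 members and had an unadjusted p under 0.05 for 5 of them. They were Bcl11b, Cd3e (0.45 ± 0.20), Cd3g (0.49 ± 0.17), Lck (0.32 ± 0.15) and Tcf7 (0.28 ± 0.11), and in that fit the diet differences of Cd3g, Lck and Tcf7 were -0.31, -0.22 and -0.19 in run 1 and 0.18, 0.091 and 0.091 in run 2. With run as a block, Bcl11b stayed lower by nearly the same amount, with a difference of -0.40 (adjusted p = 0.00576). With slide as a block, which takes in the run, it was -0.41 (adjusted p = 0.0072). Run 1 held 4 of 5 cafeteria fed, 1 of 5 cafeteria fasted and 1 of 5 cafeteria refed arrays, against 2 of 4 control fed, 4 of 5 control fasted and 2 of 5 control refed arrays, so that in fasted rats run and diet nearly coincided.

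**Figure D2:**
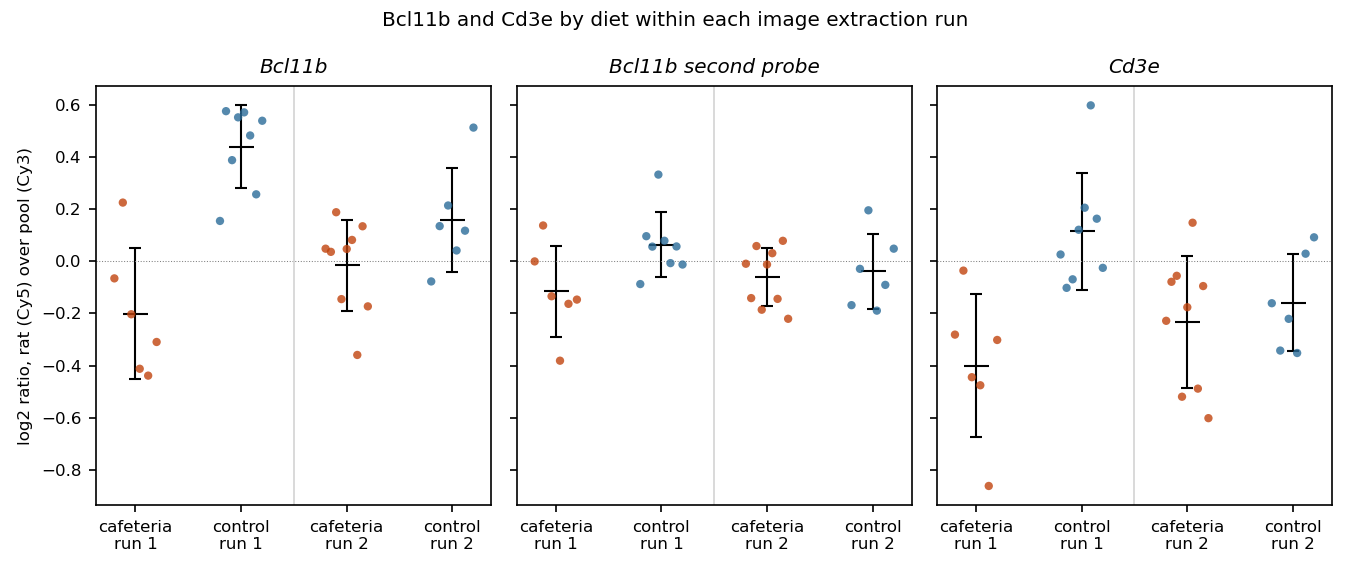
Log2 ratio over the pool of both Bcl11b probes and of Cd3e, with 1 point per rat, by diet within each image extraction run, with the mean as a bar and 1 SD as an error line (6 cafeteria and 8 control rats in run 1, 9 and 6 in run 2). The gap between cafeteria and control rats is wider in run 1 than in run 2 for the brighter Bcl11b probe (-0.66 and -0.16) and for Cd3e.

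Of the receptor chains, Cd3e had the largest diet difference. The probes of Cd3d (chr8:47936669-47936728, plus strand), Cd3e (chr8:47950313-47950372, minus) and Cd3g (chr8:47924376-47924435, minus) lie close together on rn4, and that of Cd247 spans chr13:81590937-81591687 on the plus strand. Cd3e, the epsilon chain, which pairs with both the gamma and the delta chain, had a lowest value of -0.86, a median of -0.28 and a highest of 0.15 in cafeteria rats, against -0.35, 0.00067 and 0.60 in control rats. In fed rats it was -0.036, -0.18, -0.44, -0.48 and -0.86 in the 5 cafeteria rats and 0.21, -0.34, -0.22 and 0.60 in the 4 control rats, so the groups overlapped although the lowest 3 values were those of cafeteria rats. Its difference over the 3 states was -0.30 ± 0.095 (95% interval -0.50 to -0.11), with an unadjusted p of 0.00384 and an adjusted p of 0.0764 in limma, and it did not pass. It was -0.57 ± 0.15 in run 1 and -0.091 ± 0.14 in run 2 (SE).

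Cd3d and Cd3g, the delta and gamma chains, had diet differences near 0 over both runs together. By the fit with a diet by run term, those of Cd3d and Cd3g were -0.13 and -0.31 in run 1. In run 2 they were 0.10 and 0.18. The probes of Cd3d and Cd3g were far brighter than that of Cd3e, with median Cy5 signals of 81746 and 85394 against 3432 units. The difference over the 3 states was -0.025 ± 0.085 for Cd3d (95% interval -0.20 to 0.15, adjusted p = 0.924) and -0.045 ± 0.083 for Cd3g (-0.22 to 0.13, adjusted p = 0.85). Their medians were -0.0094 and 0.033 in cafeteria rats, against 0.051 and 0.16 in control rats. For Cd247, the zeta chain, the difference was -0.042 ± 0.059 (-0.16 to 0.079, adjusted p = 0.795). Over both runs together, a change beyond 0.22 in size lay outside the interval of each of these 3 genes.

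The 3 CD3 genes lie together on chromosome 8, Cd3g and Cd3d back to back with starts 1601 bases apart and Cd3e 26251 bases beyond Cd3d. Their promoters, 250 bases before to 50 after the start (RefSeq, GRCr8), are printed because these neighbours encode subunits of 1 receptor, with diet differences of -0.025 for Cd3d, -0.045 for Cd3g and -0.30 for Cd3e, which were not tested against each other. The Cd3d window is chr8:54185269-54185568 on the plus strand, that of Cd3g chr8:54183869-54184168 and that of Cd3e chr8:54211721-54212020, both on the minus strand. Capitals mark AGGAAG, a core of ETS factor sites, or CTTTGA, the core bound by TCF-1 and LEF-1, on either strand.
Cd3d promoter: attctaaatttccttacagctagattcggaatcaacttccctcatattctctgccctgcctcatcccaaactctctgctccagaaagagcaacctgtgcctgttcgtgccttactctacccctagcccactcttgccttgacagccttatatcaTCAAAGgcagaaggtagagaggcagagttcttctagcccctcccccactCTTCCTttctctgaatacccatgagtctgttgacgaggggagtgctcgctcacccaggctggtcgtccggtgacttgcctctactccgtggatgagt
Cd3g promoter: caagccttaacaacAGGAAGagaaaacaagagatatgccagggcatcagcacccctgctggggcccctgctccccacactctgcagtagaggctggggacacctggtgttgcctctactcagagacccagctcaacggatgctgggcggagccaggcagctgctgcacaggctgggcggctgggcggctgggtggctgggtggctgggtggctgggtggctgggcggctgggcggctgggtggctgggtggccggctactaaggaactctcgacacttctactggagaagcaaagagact
Cd3e promoter: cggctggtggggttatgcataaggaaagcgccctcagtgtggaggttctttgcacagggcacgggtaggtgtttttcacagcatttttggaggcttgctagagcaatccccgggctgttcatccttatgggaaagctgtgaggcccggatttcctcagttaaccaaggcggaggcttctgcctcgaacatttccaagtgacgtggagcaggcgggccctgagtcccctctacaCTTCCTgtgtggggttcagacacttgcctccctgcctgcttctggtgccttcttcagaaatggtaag

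Both strands were also searched for the RUNX core, written TGTGGT, for the TATA box, written TATAAA, and for the E box, written CANNTG. The first and second had no match in these 3 windows, and E boxes, of which Cd3g and Cd3e held 2 each, are not in capitals. The ETS core was in all 3 windows and the TCF-1 core in that of Cd3d, and they did not overlap. Of the 8 promoters listed for 7 members (2 of them for Lck), 7 held the ETS core, where 34.5% of all 33469 promoters of the same length did, and 3 held the TCF-1 core (16.1% of all). The RUNX motif was in 1 (17.3%), an E box in 5 (72.1%) and a TATA box in 0 (14.2%). A match describes the letters of the window and no more.

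The co-receptor probes lie on chromosome 4 of rn4, those of Cd8a (chr4:104593483-104593542) and Cd8b (chr4:104552489-104552548) near each other on the plus strand and that of Cd4 (chr4:160989843-160990442) on the minus strand. Cd8a, the alpha chain of CD8, had a lowest value of -0.76, a median of -0.23 and a highest of 0.061 in cafeteria rats, against -0.55, -0.071 and 0.25 in control rats. Its difference over the 3 states was -0.15 ± 0.083 (95% interval -0.32 to 0.024, adjusted p = 0.413). In refed rats it was -0.14, -0.026, -0.68, -0.19 and -0.76 in the cafeteria group, against 0.043, 0.25, -0.062, -0.0065 and -0.22 in the control group. The difference there was -0.36 ± 0.14 (unadjusted p = 0.0165, adjusted p = 0.395), with cafeteria rats 9 and 15 far below the others.

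NK and cytotoxic cell markers also lay below 0 on the whole in the same refed comparison, though none passed. Their median difference was -0.43, 0 of 14 measured genes were called by limma and 7 had an unadjusted p under 0.05 (8.43% of all probes). Their summed Cy5 signal was 182662 to 464783 units in cafeteria refed rats, against 406611 to 840754 units in control refed rats. The part of these cells in the Cd8a values was not tested. Cd8b, the beta chain, which is more restricted to T cells, had a difference of -0.16 ± 0.18 in refed rats (adjusted p = 0.904) and -0.12 ± 0.11 over the 3 states (adjusted p = 0.646).

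Cd4 was the member whose difference over the 3 states lay above 0, at 0.076 ± 0.066 (95% interval -0.06 to 0.21, adjusted p = 0.634). In fasted rats it was -0.085, -0.12, -0.24, 0.18 and -0.35 in cafeteria rats, against -0.39, -0.58, -0.34, -0.21 and -0.40 in control rats. The lowest values, -0.58, -0.40 and -0.39, were those of control rats, and the groups overlapped. The difference was 0.26 ± 0.11 (unadjusted p = 0.0264, adjusted p = 0.259). The 11 monocyte markers had a median of 0.20 (range -0.35 to 0.59), with 0 called by limma and 1 at an unadjusted p under 0.05. This was not particular to monocytes. Neutrophil and erythroid genes had medians of 0.20 and 0.26, with 3 of 10 and 1 of 10 at such a p, against 15.2% of all probes. Platelet and plasma cell genes had medians of -0.82 and -0.73. The part of monocytes or of these other cells in the Cd4 values was not tested. Cd4 also differed by run, with a mean of -0.27 in run 1 and -0.067 in run 2 in cafeteria rats, against -0.30 in run 1 and -0.13 in run 2 in control rats. With run as a block the difference in fasted rats was 0.17 ± 0.11 (adjusted p = 0.585). Set against Cd8a within a rat, the log2 ratio of Cd4 minus that of Cd8a averaged 0.068 ± 0.24 in cafeteria fed, 0.081 ± 0.40 in cafeteria fasted and 0.24 ± 0.42 in cafeteria refed rats, against 0.096 ± 0.45 in control fed, -0.25 ± 0.24 in control fasted and -0.13 ± 0.25 in control refed rats (SD).

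The diet differences of Lck (probe at chr5:148713169-148715276) and Tcf7 (probe at chr10:37691480-37691539, both on the minus strand of rn4) were smaller than that of Bcl11b in size and did not pass. Lck had a difference of -0.084 ± 0.072 (95% interval -0.23 to 0.063, adjusted p = 0.627), with medians of -0.26 in cafeteria and -0.20 in control rats. The difference of Tcf7 was -0.054 ± 0.054 (-0.16 to 0.056, adjusted p = 0.685), with medians of -0.13 and -0.064. Of the 10 members, 9 lay below 0 over the 3 states, with a median of -0.069 against 0.0069 over all probes. The number below 0 was 9 with processed signals, 4 with median centring, 9 with Cy5 alone and 4 in the authors' table. The median of all probes in these settings was 0.021, 0.043, 0.010 and 0.060, in the same order. In the main values only the 95% intervals of Bcl11b and Cd3e excluded 0.

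**Figure D3:**
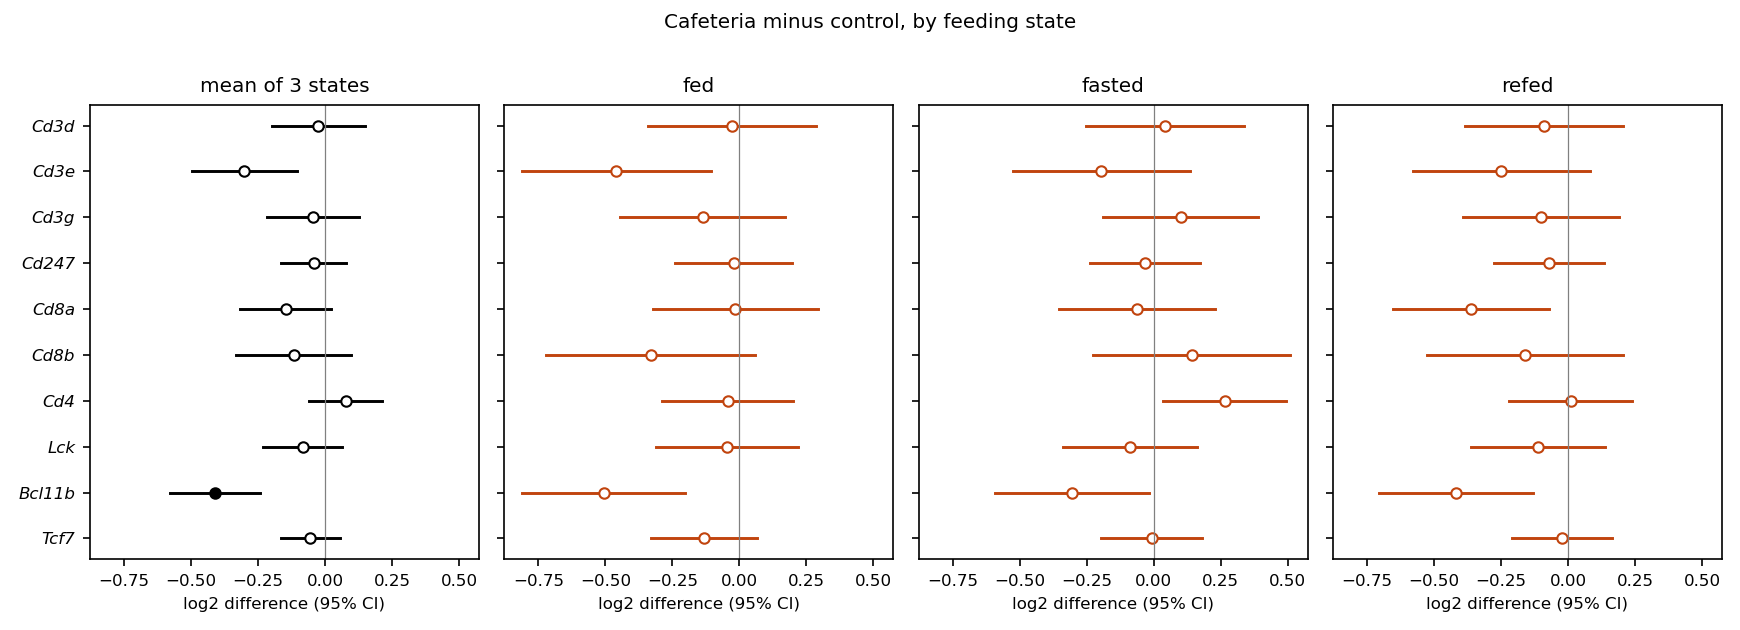
Difference of group means of log2 ratios, cafeteria minus control, for the 10 members over the 3 feeding states and in each state, with 95% confidence intervals as lines and a filled point where the adjusted p was under 0.05. Bcl11b over the 3 states (-0.41) is the only filled point. The intervals of Bcl11b in each state, of Cd3e over the 3 states (-0.50 to -0.11) and in fed rats, and of Cd8a in refed rats also lie below 0. That of Cd4 in fasted rats lies above 0.

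Other T cell genes, in lists drawn up with earlier results of these data known, held 3 calls in 64 genes between the diets (4.69%, against 3.91% of all probes), all of them lower (3.09% of all probes). Of 16 measured T cell transcription factors 2 fell and 0 rose, of 10 genes of homing and quiescence of naive T cells 1 fell and 0 rose, and of 19 genes of T cell receptor signalling and 19 of T cell surface and costimulation 0 were called by limma, with 1 and 7 at an unadjusted p under 0.05. Over the 4 lists 23.4% of genes had such a p, against 15.7% of all probes. The median differences of the 4 lists were -0.041, -0.05, -0.075 and -0.073. Runx3, a factor of CD8 T cells and NK cells, fell by 0.31 ± 0.048 (adjusted p = 0.00021), with a median of -0.24 (range -0.70 to -0.095) in cafeteria rats and 0.076 (range -0.19 to 0.28) in control rats. Tcf12, an E protein of early T cells, fell by 0.61 ± 0.14 (adjusted p = 0.00836), and Itga4, an integrin subunit of lymphocyte traffic, fell by 0.39 ± 0.10 (adjusted p = 0.0295), and for all 3 genes the ranges of the diets overlapped.

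Some markers of other cells changed with diet too. Of 10 measured erythroid genes 2 rose, among them Ahsp by 0.99 (adjusted p = 0.0181), and the list had a median of 0.47. The summed Cy5 signal of the erythroid genes was 30777 to 49722 units when fed, 29599 to 83150 when fasted and 22569 to 81839 when refed on the cafeteria diet, against 23574 to 47886 (fed), 19188 to 72350 (fasted) and 13254 to 55565 units (refed) on the control diet. Camp, a neutrophil granule peptide, rose by 0.80 (adjusted p = 0.0142), the 1 call among 10 neutrophil genes. Of 10 B cell genes 0 were called and 4 had an unadjusted p under 0.05, with a median of 0.20. Of 12 platelet genes 0 were called and 3 had an unadjusted p under 0.05, with a median of -0.29. Adjusted for mean platelet expression, Bcl11b stayed called at -0.44 (adjusted p = 0.00106) and Cd3e fell by 0.35 (adjusted p = 0.0241). The part of erythroid cells, neutrophils and B cells in these differences was not tested.

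Comparing fasted with fed rats asks whether 14 h without food changed T cell genes in the blood. None of the 10 members was called in cafeteria or in control rats, where 0.821% and 0.0814% of probes were, and limma gave 0 at an unadjusted p under 0.05 in either. In cafeteria rats all 10 differences lay above 0, from 0.013 for Cd3d to 0.24 ± 0.18 for Cd8b, with a median of 0.083 (0.003 over all probes). The count above 0 was 10 with processed signals, median centring and Cy5 alone, and 8 in the authors' table. With run as a block Cd4 lay below 0, at -0.02. Run 1 held 4 of 5 cafeteria fed but 1 of 5 cafeteria fasted arrays, so run and feeding state nearly coincided there. In control rats 3 lay above 0 and 7 below, from -0.24 ± 0.19 for Cd8b to 0.11 ± 0.15 for Cd8a, with a median of -0.055. No interval excluded 0. Their reach differed between members, from -0.62 to 0.15 for Cd8b but from -0.11 to 0.33 for Cd247 in control rats.

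Cd8b had fasting differences of opposite sign in the diets, neither of which passed. It was -0.55, 0.30, 0.22, -0.19 and -0.23 in cafeteria fasted rats, against 0.36, -0.30, -0.57, -0.72 and -0.40 in cafeteria fed rats. In control rats it was -0.05, 0.045, -0.21, -0.16 and -0.77 when fasted, against 0.31, -0.27, -0.064 and 0.052 when fed. The fasted and fed groups overlapped in both diets. Without single arrays the fasting difference ranged from 0.14 to 0.41 in cafeteria rats and from -0.33 to -0.099 in control rats. The difference of its fasting responses between diets, the interaction, was 0.47 ± 0.26 (unadjusted p = 0.0807, adjusted p = 1.00), and 0 of 10 members were called for that term, where 0% of probes were, with 0 at an unadjusted p under 0.05. Over both diets, 3.91% of probes and 0 of 10 members were called on fasting, with 0 members at an unadjusted p under 0.05.

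Cd4 was the member with the smallest p on fasting in control rats. It was -0.39, -0.58, -0.34, -0.21 and -0.40 in control fasted rats, against -0.32, -0.0057, -0.10 and -0.19 in control fed rats. The difference was -0.23 ± 0.12 (unadjusted p = 0.0628, adjusted p = 0.47), and in cafeteria rats it was 0.076 ± 0.11 (adjusted p = 0.911). With run as a block the differences were -0.18 ± 0.11 in control rats (adjusted p = 0.56) and -0.02 ± 0.11 in cafeteria rats (adjusted p = 0.998). The interaction for Cd4 was 0.31 ± 0.16 (unadjusted p = 0.0713, adjusted p = 1.00), so a difference between the diets was not shown.

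Comparing refed with fasted rats asks how the same genes stood after 6 h of food. In refed against fasted control rats 9.01% of all probes were called and in cafeteria rats 1.32%, but 0 of 10 members were in either by limma. At an unadjusted p under 0.05 there were 1 and 0 members, against 21.9% and 13.1% of all probes. The 1 was Cd4, at -0.25, -0.13, -0.32, 0.10 and -0.043 in control refed rats against the fasted values above, a difference of 0.26 ± 0.11 (unadjusted p = 0.029, adjusted p = 0.164). Cd3g had a difference of 0.27 ± 0.14 (adjusted p = 0.275) and Cd3d of 0.22 ± 0.14 (adjusted p = 0.404) in control rats, with 0.35, 0.20, -0.024, 0.12 and 0.58 for Cd3g in refed rats and -0.13, 0.00052, -0.13, 0.41 and -0.27 in fasted rats. These comparisons share the fasted rats with those on fasting.

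In cafeteria rats the refeeding differences ran from -0.16 ± 0.14 for Cd8a to 0.084 ± 0.14 for Cd3d. The interaction of diet and refeeding lay below 0 for all 10 members, with a median of -0.12, and 0 of 10 members were called, where 0% of probes were, and 0 had an unadjusted p under 0.05. The count of members below 0 for that term was 10 with processed signals, with Cy5 alone and in the authors' table, and 3 with median centring. Over both diets 13.2% of probes were called on refeeding and 0 of 10 members, with 0 at an unadjusted p under 0.05. Between refed and fed rats 0% of probes were called in either diet, and 0 members, of which 0 had an unadjusted p under 0.05.

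**Figure D4:**
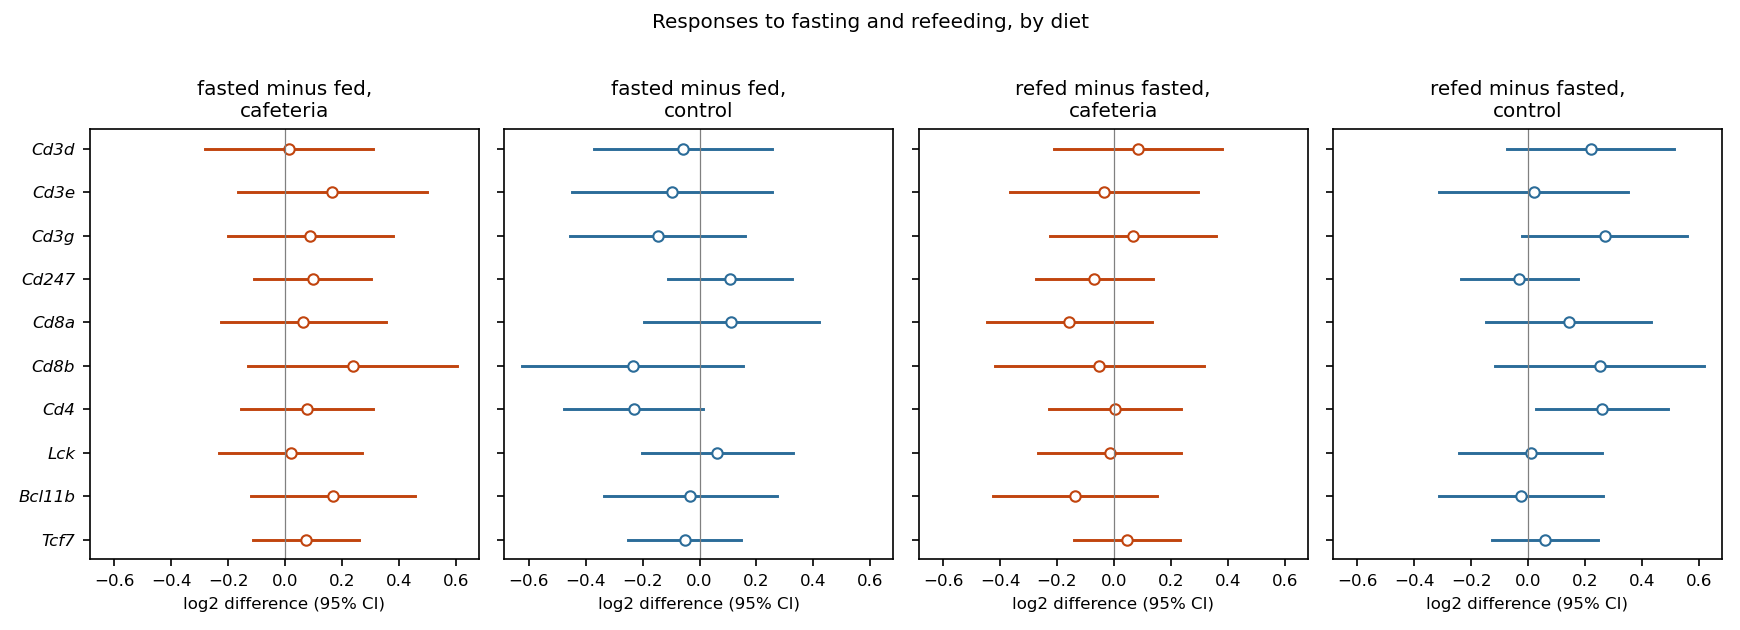
Difference of group means of log2 ratios for the 10 members, fasted minus fed and refed minus fasted, in cafeteria and in control rats, with 95% confidence intervals as lines. No point is filled, since no adjusted p was under 0.05, and only the interval of Cd4 on refeeding in control rats (0.029 to 0.49) lies off 0.

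Platelet genes fell on refeeding in control rats, beside members that did not pass. All 12 measured platelet genes fell in refed against fasted control rats, with a median of -1.61 and a summed Cy5 signal of 337700 to 688470 units in refed against 1096795 to 1383676 units in fasted rats. In cafeteria rats 0 of 12 were called by limma and 3 had an unadjusted p under 0.05, with a median of -0.48 and sums of 346573 to 1081198 units in refed against 679172 to 1183970 units in fasted rats. Adjusted for mean platelet expression, 0 of 10 members were called in refed against fasted control rats, as without the adjustment. The platelet mean averaged 0.73 in control fasted and -0.86 in control refed rats, so it nearly coincides with this contrast. The adjusted count therefore cannot tell what part platelets had in the members. Of 64 other T cell genes in the 4 lists, 8 (12.5%) were called on refeeding over both diets, near the 13.2% of all probes. Btla, an inhibitory receptor of T and B cells, rose by 0.49 ± 0.079 (adjusted p = 0.0003), Klf2 by 0.26 ± 0.061 (adjusted p = 0.00513) and Ccr7 by 0.30 ± 0.083 (adjusted p = 0.0159), a quiescence factor and a lymph node homing receptor. Cd28, the main costimulatory receptor, fell by 0.29 ± 0.078 (adjusted p = 0.0111), and Cd226, which platelets also carry, fell by 0.90 ± 0.20 (adjusted p = 0.003).

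By list, 3 of 10 homing and quiescence genes rose on refeeding over both diets (the third was Ccr9) and 0 fell, 1 of 19 surface and costimulation genes rose and 2 fell, 2 of 19 receptor signalling genes rose and 0 fell, and 0 of 16 transcription factors were called by limma, with 3 at an unadjusted p under 0.05. The 2 signalling genes were Ptpn6, the phosphatase SHP-1 (0.37 ± 0.066, adjusted p = 0.000664), and Csk, the kinase that holds LCK inactive (0.16 ± 0.051, adjusted p = 0.0343). The medians of the 4 lists were 0.07, 0.016, 0.05 and 0.017, against 0.0025 over all probes. On fasting over both diets 3 of the 64 genes (4.69%) were called, near the 3.91% of all probes. Btla fell by 0.42 ± 0.082 (adjusted p = 0.00356), Cd28 rose by 0.35 ± 0.08 (adjusted p = 0.0123) and Ptpn6 fell by 0.25 ± 0.069 (adjusted p = 0.0366), from the same fasted rats.

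Over both runs together, the members varied together across the 29 rats, Cd4 apart. The 45 pairs had Pearson correlations of -0.279 to 0.79 with a median of 0.468, and 26 pairs, all positive and none with Cd4, had an adjusted p under 0.05 in a 2-sided permutation test of 100000 resamples, adjusted over the 45 pairs. The 36 pairs without Cd4 had a median of 0.488 and the 9 with Cd4 a median of -0.027. Within runs the values of Cd4 differed. With Tcf7, Cd3g and Cd247 they were 0.723, 0.445 and 0.443 in run 2, against -0.059, -0.057 and -0.289 in run 1. With Cd3d and Cd8a they were 0.0064 and -0.193 in run 2, against -0.105 and 0.0999 in run 1. The difference between runs was not tested. The median Cy5 signal of the Cd4 probe was 372 units. The points share the arrays, the pool, the normalization and the mix of cells in each blood sample. The share of pairs of other genes that would pass was not measured, so the count of 26 does not set the members apart.

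Bcl11b and Cd3e had the highest correlation of any pair, r = 0.79 and Spearman's rho = 0.792 (permutation p = 1e-05 for each, the smallest the resamples can give, adjusted p = 0.000112 and 0.000225). It was 0.766 without the 2 rats farthest from the median of Cd3e, 0.695 after group means were taken off, 0.813 in run 1 and 0.708 in run 2. Cd3d and Cd3g, the back-to-back pair whose promoters are printed above, followed with r = 0.744 and rho = 0.757 (permutation p = 1e-05 for each, adjusted p = 0.000112 and 0.000225), 0.784 without the 2 farthest rats, 0.826 in run 1 and 0.759 in run 2. After group means were taken off, the highest value of the 45 pairs was that of Cd3g and Bcl11b, 0.808, with 0.717 for Cd3d and Cd3g, 0.703 for Cd3d and Bcl11b and 0.655 for Cd3e and Cd3g, so no division of these 4 genes into pairs was seen there. Over all arrays Cd3g and Bcl11b had r = 0.585 (rho = 0.553, permutation p = 0.001 and 0.002, adjusted p = 0.00363 and 0.00775), with 0.48 without the 2 farthest rats, 0.735 in run 1 and 0.609 in run 2. Cd3d and Cd3e had r = 0.466 (permutation p = 0.01, adjusted p = 0.0211), with 0.489 without the 2 farthest rats, 0.603 in run 1 and 0.217 in run 2. Their rho of 0.396 did not pass (permutation p = 0.03, adjusted p = 0.0609).

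Lck followed Cd247 (r = 0.733, rho = 0.703, adjusted p = 0.000112 and 0.00045 by permutation) and Cd8a (r = 0.728, rho = 0.677, adjusted p = 0.000112 and 0.000619 by permutation). Without the 2 rats farthest from the median the values were 0.675 and 0.658, and they were 0.819 and 0.621 in run 1 and 0.707 and 0.726 in run 2. The chains of CD8, which pair in 1 receptor on T cells, correlated less, with r = 0.421 for Cd8a and Cd8b (rho = 0.574, permutation p = 0.02 and 0.001, adjusted p = 0.0399 and 0.0056), 0.468 without the 2 farthest rats, 0.509 in run 1 and 0.378 in run 2. Cd4 and Cd8a had the lowest value of all pairs, r = -0.279 (rho = -0.267, permutation p = 0.1 and 0.2, adjusted p = 0.202 and 0.23), with -0.237 without the 2 farthest rats, 0.0999 in run 1 and -0.193 in run 2, and did not pass.

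**Figure D5:**
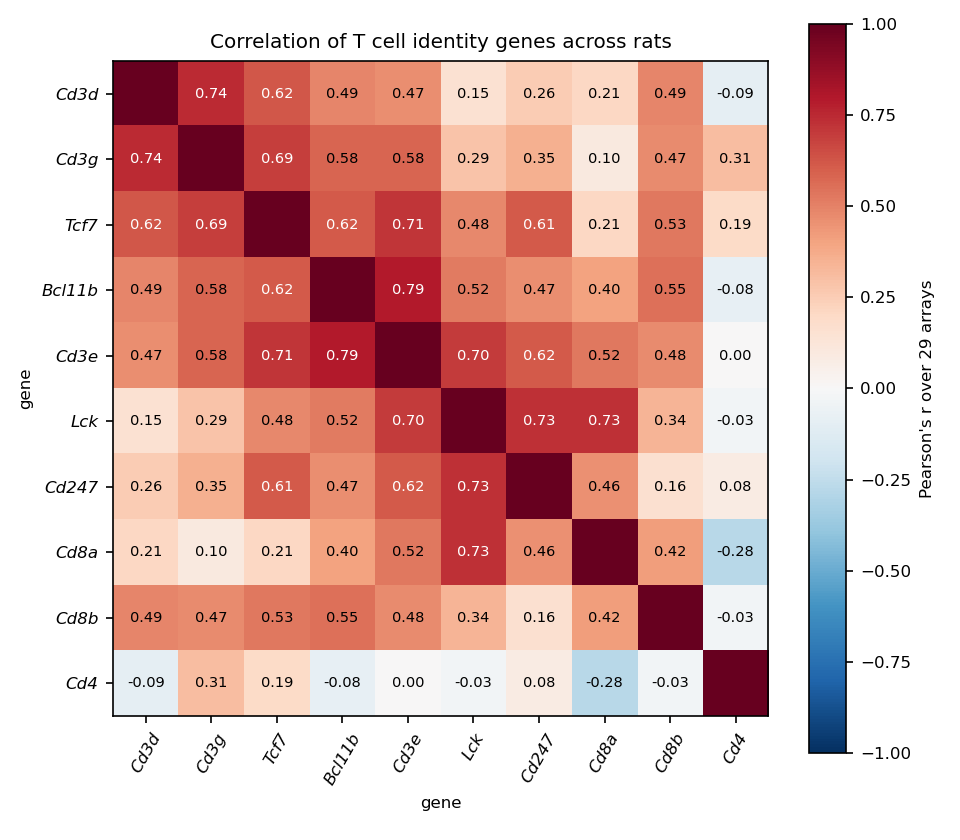
Pearson correlations over the 29 arrays between the 10 members, from blue (-1) through white (0) to red (1), with the value in each cell. The cells of Cd4 range from -0.28 to 0.31, and the other cells from 0.097 to 0.79.

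The means of marker lists were set beside the members as a description over the same 29 arrays. The mean of the members had a correlation of 0.803 with the mean of the receptor signalling genes, 0.679 with the T cell transcription factors, 0.678 with homing and quiescence genes and 0.586 with surface and costimulation genes. It was -0.566 with B cell markers, -0.314 with platelet markers, 0.057 with NK and cytotoxic cell markers and 0.018 with monocyte markers. Without the 2 rats farthest from the median of the member mean, the 4 T cell lists had 0.834, 0.554, 0.666 and 0.459, in the same order. B cell, platelet, NK and cytotoxic cell, and monocyte markers then had -0.394, -0.264, 0.147 and 0.070. Of the single members, Cd4 had a correlation of 0.514 with monocyte and 0.52 with neutrophil markers, and Cd8a one of 0.678 with NK and cytotoxic cell markers. Bcl11b had one of -0.0724 with monocyte, 0.0207 with NK and cytotoxic cell, -0.595 with B cell and 0.0483 with platelet markers.

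Of 11296 other genes, those most like the mean of the members over 29 arrays included Mthfd1 (r = 0.803), a folate enzyme, Hpcal1 (0.791), a calcium sensor, Arpp21 (0.781), a phosphoprotein regulated by cyclic AMP, Phc1 (0.767), a Polycomb subunit, Cd5 (0.763), a receptor of T cells, and Skap1 (0.748) and Lat (0.746), adaptors of T cell receptor signalling. Within groups their correlations were 0.726 to 0.801. The least like were Vav2 (-0.777), Itpr1 (-0.776), Hhex (-0.766) and Ms4a1 (-0.749), the last of which encodes the B cell antigen CD20. They were chosen by their correlation, so no test is given.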

How the data were processed

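RNA of blood mononuclear cells from 29 rats was measured on 2-colour Agilent arrays. Each scanner file lists, per the file headers, the mean and local background intensity of every spot as Feature Extraction 9.5.1.1 read it (probes placed on rn4), beside flags for spots above background, saturated or outlying. The values that the authors deposited as a series table are on a log2 scale, and their normalization is not given in the sources used here.

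Intensities were corrected with normexp (offset 50) and log2 ratios normalized by loess in limma 3.58.1 (R 4.3.3), with control spots at weight 0 and outlier spots left out. Replicate spots were averaged, and the 28242 of 41012 probes well above background in Cy5 on at least 4 of 29 arrays were kept. All 6 groups entered 1 fit (lmFit, eBayes) without covariates, with p-values adjusted by Benjamini-Hochberg over all probes within each of 14 comparisons, and calls at an adjusted p under 0.05. The fit was tested on simulated data. A gene was counted by its brightest probe. Alternatives were processed signals, median centring, Cy5 alone, the authors' values, other filters, blocks for slide, run or rat number, a platelet covariate and leaving out each array. The rule named all members in every comparison, and of each list up to 6 called genes, or the 2 with the smallest p. The members, lists and rules were chosen with earlier results of these data known. Precision is limited by the number of arrays. Some genes that these rules name are not reported here.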

Additional observations from a re-analysis of the deposited data

Results flagged for a closer look

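In 4 of 66 sets of values (11 probes in 6 groups) 1 array lay far from the others of its group, by the gap to its nearest neighbour over the range of the group. Chance gives such a gap in about 5% of sets. Cd3d in control fed rat 4 was -0.55, against 0.12 for the next lowest rat, and Cd3g in the same rat was -0.21, against 0.19. The platelet marker mean of this array was the highest of its group, and its part in these values was not tested. Cd247 in cafeteria fed rat 13 was -0.53, against -0.088 for the next. This rat also had the lowest Cd3d, Cd3e, Cd8a, Lck, Bcl11b and Tcf7 of its group. Cd8a in control fasted rat 11 was -0.36, against -0.11 for the next. Leaving out control fed rat 4 brought the call of Cd3e between the diets, given with the processing below, and leaving out either of the other 2 arrays changed no count of called members.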

How the results depend on the processing

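The call of Bcl11b between the diets over the 3 feeding states is the count that moved, 1 of 10 members in the main values. It was 0 with median centring, where Bcl11b had a difference of -0.32 (adjusted p = 0.341) and 92 probes were called over the array against 1105, and 0 with the second Bcl11b probe, an alternative chosen after seeing the data. It was 2 when adjusted for mean platelet expression, and 1 to 2 when single arrays were left out. The 2 came without control fed rat 4, control refed rat 9, cafeteria fed rat 1 or cafeteria refed rat 6, each time by adding Cd3e (adjusted p = 0.0328 to 0.0475). Bcl11b ranged from -0.44 to -0.39 without single arrays (adjusted p up to 0.00815) and from -0.44 to -0.10 over 13 other settings, which called it in 11. Among those 11, the other filters on dim probes and 1 probe per gene left the difference at -0.41 and could change only its adjustment. The setting with only the groups compared repeats the main fit here, since this comparison uses all 6 groups. The cause of the changes in the count was not tested. In the other 13 comparisons 0 members were called under every setting run. Of single differences that were not called, 5400 recomputed values kept their sign and their side of the threshold, 353 changed sign, and 5, all of Cd3e between the diets, passed the threshold.

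In the authors' table the median of all probes lay 0.127 above 0 between the diets in fed rats and 0.149 above 0 in refed against fasted control rats, so signs of small differences there shift with it. Of the members, 10 lay below 0 between the diets in fed rats in the main values, 9 with processed signals, 8 with median centring, 7 with Cy5 alone and 4 in the authors' table.

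Rat numbers are shared by the diets but name different animals. Over 14 pairs of the same number and state the correlation of deviations from group means was -0.147 to 0.24, was over 0.1 in 6 pairs, and was highest with the own number in 3, so the numbers were not taken as pairs. With the replicate block, Bcl11b had a difference of -0.39 (adjusted p = 0.0048), 1 member was called between the diets and 0 in each other comparison it was fitted for. Over all probes it gave 490 calls against 318 between the diets in fasted rats, 240 against 104 in refed rats and 0 against 1 in fed rats.

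With 4 or 5 rats a group, the widest 95% interval of a member in a single feeding comparison, that of Cd8b, reached 0.62 from 0, and those of less variable members were narrower. All 11 member probes were well above background on all 29 arrays, and none was saturated. The median Cy5 signal ran from 256.1 units at the second Bcl11b probe to 85394 units at Cd3g. Whether signal level limited the differences was not tested. Dyes were not swapped, so a dye effect of a probe is shared by all groups.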
